A study of Mus musculus with 3 samples.

Results

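The genes described here are the 64 rows of the expression table whose symbols run from Zfp900 to Zfp999, among 32545 rows in all. The rule used the symbol and no expression value. Of these, 63 were annotated as protein coding and 1, Zfp939, as a transcribed pseudogene. The RNA-seq data came from E3 mouse embryonic stem cells (ESCs), a line derived from C57BL/6 × 129S6 and grown on a layer of embryonic fibroblast feeders, at passage 7. There was 1 control sample, transfected with the empty vector, and 1 labelled sample for each of the Usp17l knockdown lines, KD4 and KD9. In both knockdown lines a puromycin-selected clone carried shRNA against the stretch shared by the Usp17l genes, which encode deubiquitinases active at the 2-cell stage, so each line stood for 1 clone. The table held 2 columns for each knockdown line, which were averaged and counted as 1 sample, and 1 column for the control. Values are TPM, a level scaled for transcript length and library total, and the depth behind them is unknown. Differences were taken between values of log2(TPM + 0.1), a scale that shrinks those of weakly expressed genes.

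Most genes with these symbols encode KRAB zinc finger proteins. Each C2H2 finger contacts a few bases of DNA, so that a row of fingers gives a protein its target sequence, and the KRAB box recruits Trim28 (KAP1), which brings in histone methylation and heterochromatin proteins. In ESCs and early embryos such proteins are best known for silencing endogenous retroviruses. The genes arise by duplication, lie in clusters, and differ between mouse strains in number. In the reference proteins a KRAB box pattern was found in 54 of the 64 genes and at least 1 C2H2 finger in 60, with a median of 11 fingers and a maximum of 21. The genes lay on 12 chromosomes. When genes less than 1 Mb apart were joined, 45 of them fell into 6 clusters and 19 stood alone. The largest cluster held 16 genes in 2.34 Mb of chromosome 4 (chr4:145510759-147848366, mm10), and its members carried between 2 and 16 fingers, all with a KRAB box. There were 10 genes on chromosome 17 (chr17:21567008-22867134), 10 on chromosome 2 (chr2:175372436-178078476), 4 on chromosome 7, 3 on chromosome 8 and 2 on chromosome 13.

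Just before their starts, 8 of 10 genes of the chromosome 4 cluster had stretches of sequence that were alike, while Zfp993 and Zfp933 had others. They are shown because the expression results below turn on this cluster. Each line gives the 120 bases before the RefSeq start (GRCm38.p6), 5′ to 3′ on the strand of the gene, and capitals mark the letters ATTGGGCGG, a CCAAT box on the opposite strand (ATTGG) that overlaps a GC box (GGGCGG).
Zfp988 (chr4:147305484-147305603, plus strand): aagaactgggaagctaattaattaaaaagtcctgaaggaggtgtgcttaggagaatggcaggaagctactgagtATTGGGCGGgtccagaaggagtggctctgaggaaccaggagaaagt
Zfp982 (chr4:147492297-147492416, plus strand): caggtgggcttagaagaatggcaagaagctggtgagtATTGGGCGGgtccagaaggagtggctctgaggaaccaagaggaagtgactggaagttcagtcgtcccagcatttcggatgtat
Zfp985 (chr4:147553157-147553276, plus strand): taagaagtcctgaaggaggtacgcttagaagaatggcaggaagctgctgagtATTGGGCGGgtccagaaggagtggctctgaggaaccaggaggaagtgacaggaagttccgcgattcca
Zfp979 (chr4:147642509-147642628, minus strand): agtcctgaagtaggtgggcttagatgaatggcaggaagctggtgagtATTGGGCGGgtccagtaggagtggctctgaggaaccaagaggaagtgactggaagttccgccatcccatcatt
Zfp984 (chr4:147809789-147809908, minus strand): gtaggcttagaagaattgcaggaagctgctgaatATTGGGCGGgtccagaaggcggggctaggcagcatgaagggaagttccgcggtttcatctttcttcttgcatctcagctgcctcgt
Zfp987 (chr4:146097192-146097311, plus strand): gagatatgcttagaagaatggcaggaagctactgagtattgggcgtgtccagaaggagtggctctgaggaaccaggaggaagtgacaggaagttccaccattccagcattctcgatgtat
Zfp993 (chr4:146512729-146512848, plus strand): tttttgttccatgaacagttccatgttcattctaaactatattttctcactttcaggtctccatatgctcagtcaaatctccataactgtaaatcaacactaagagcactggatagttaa
Zfp933 (chr4:147848419-147848538, minus strand): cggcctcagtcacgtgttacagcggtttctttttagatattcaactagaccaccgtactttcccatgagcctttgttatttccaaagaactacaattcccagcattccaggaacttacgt
Promoter sequence was on hand for 10 of the 16 genes in the cluster, and 7 of these held the 9 letters on 1 strand or the other, beginning 46 to 95 bases before the start. The 7 were Zfp979, Zfp980, Zfp981, Zfp982, Zfp984, Zfp985 and Zfp988. Identity was counted over the part where 2 aligned stretches overlap. Unpaired ends were left out, so the values do not cover all 120 bases. Any 2 of the 7 stretches were 72% to 93.9% identical on this measure, with a median of 84.9% over 21 pairs. The stretch of Zfp987 was 94.3% identical to that of Zfp985 although the exact 9 letters were not in it. That of Zfp933 was 54.8% to 64.7% identical to the others, and that of Zfp993 55.6% to 73.7%. Neither of these 2 stretches held the 9 letters. The RefSeq start of Zfp993 lies ahead of the gene body used here (chr4:146610961-146658160). Its stretch falls within the body of Zfp981 (chr4:146502027-146539395), and whether Zfp993 is transcribed from there in these cells was not tested. The genes with these unlike stretches differed from each other in expression, with log2 differences from the control in KD9 of -0.71 for Zfp993 and 0.26 for Zfp933. Among the other genes numbered from Zfp900 to Zfp999, 2 of 44 held the same letters (Zfp947 and Zfp994), and of all 32851 promoter windows 0.256% did. Because the motif was picked after reading these promoters, the counts are a description and say nothing of a factor or of binding.

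The genes of the chromosome 4 cluster also held the highest levels. Averaged over control, KD4 and KD9, 24 of the 64 genes reached a mean TPM of 10, and 15 of these 24 lay in the cluster. The 10 genes with the highest levels all did. A further 33 genes were between 1 and 10, and 7 were under 1. Zfp979, a gene with 3 annotated fingers (ENSMUSG00000066000.12, chr4:147611937-147642513, minus strand), had the highest level, with a TPM of 71.8 in the control, 85.8 and 82.8 in the columns of KD4, and 53.4 and 56.3 in those of KD9. Zfp988, with 14 fingers (ENSMUSG00000078498.5, chr4:147305674-147333734, plus strand), followed at 75.8 in the control, 80.7 and 72.7 in KD4 and 46.8 and 51.8 in KD9. In both genes every KD9 column lay below the control and below both KD4 columns. The sole member of the cluster with a mean under 10 was Zfp933, at 4.22 in the control, 4.6 and 5.55 in KD4 and 5.03 and 5.16 in KD9.

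Summed over the 64 genes, the level was 911.5 TPM in the control, 1032 and 983 in KD4, and 703 and 724 in KD9. The chromosome 4 cluster accounted for 642 TPM in the control, 699 and 657 in KD4, and 445 and 467 in KD9. Its share of the sum was 70.5% in the control, 67.7% and 66.9% in KD4, and 63.3% and 64.5% in KD9. In KD9 the summed level of the cluster was thus 0.710 of the control. For the remaining 48 genes the sum was 269 TPM in the control, 333 and 326 in KD4, and 258 and 257 in KD9, so that outside chromosome 4 the KD4 columns were high and the KD9 columns were close to the control.

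**Figure D1:**
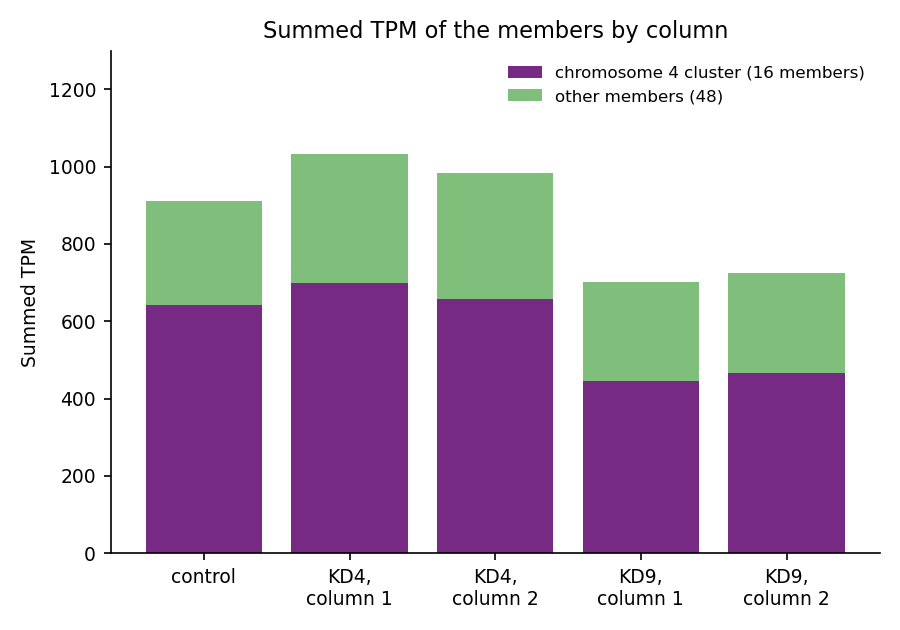
Summed TPM (vertical axis, from 0) of the genes in the chromosome 4 cluster (purple) and of the other 48 genes (green) in each column. The cluster contributes 642 TPM in the control and 445 and 467 TPM in the KD9 columns.

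To ask whether Usp17l knockdown altered these genes, each line was first set against the control. With 1 control and 1 sample per line, single-line values have no replicate check. Where the mean TPM was 0.5 or more, 61 of the 64 genes could be compared, among 19950 genes in all. Few of the 61 differed strongly. In KD4, 3 were more than 2-fold higher than the control (Zfp972, Zfp969 and Zfp966) and 0 were more than 2-fold lower, where 5.18% and 9.5% of all genes were. In KD9 only Zfp972 was more than 2-fold higher and 0 were more than 2-fold lower, where 4.21% and 5.45% of all genes were. Zfp972 was thus the 1 gene more than 2-fold higher in both lines, a share near the 2.47% of all genes, and 0 were lower in both (3.2% of all genes). The median log2 difference of the 61 genes was 0.22 in KD4 and -0.06 in KD9, beside -0.02 and -0.06 over all genes. The 289 other numbered Zfp genes above the same level had medians of 0.19 and 0.04.

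When both lines were tested together against the control with limma, 0 of the 61 genes reached an adjusted p under 0.05, higher or lower, and 0 of all 19950 genes did. Without adjustment, 0 of the 61 genes were under a p of 0.05, beside 506 genes higher (2.54%) and 535 lower (2.68%) in the whole table. The lowest p among the 61 belonged to Zfp972, with a log2 difference of 1.39 (SE 0.52) and a limma adjusted p of 0.973. For the genes of the chromosome 4 cluster the estimates ran from -0.47 to 0.26, with SEs between 0.28 and 0.42 and a limma adjusted p of 0.9996 throughout. In this fit the spread between KD4 and KD9 is part of the error.

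KD9 had lower levels across the chromosome 4 cluster, while KD4 stayed near the control. In KD9, 15 of the 16 genes had both columns below the control, where 49.8% of all genes did, and Zfp933 was the exception. The median log2 difference of the 16 genes was -0.54, or 0.686-fold, ranging from -0.82 (Zfp989) to 0.26 (Zfp933). In KD4 the median was 0.11, with a range of -0.21 (Zfp987) to 0.26 (Zfp933), and 8 of the 16 genes had both columns above the control (38.5% of all genes). More than 1.5-fold lower in KD9 were 6 of the 16 (Zfp981, Zfp986, Zfp987, Zfp988, Zfp989 and Zfp993), where 11.6% of all genes were. The columns of KD9 lay close together in this cluster, with a median distance of 0.07 and a largest distance of 0.31 on the log2 scale.

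The genes with the next highest levels showed the same order of samples. Zfp990, with 13 fingers and the first gene of the cluster (chr4:145510759-145539188), had a TPM of 58.1 in the control, 70.5 and 67.4 in KD4, and 46.0 and 48.5 in KD9. Zfp978, annotated with 3 fingers, was at 57.5 in the control, 65.6 and 63.9 in KD4, and 48.8 and 51.3 in KD9. In both, KD4 was above the control and KD9 below it, with log2 differences of 0.25 and -0.30 for Zfp990 and of 0.17 and -0.20 for Zfp978. Zfp981, with 7 fingers, was at 38.5 in the control, 43.5 and 40.0 in KD4, and 24.5 and 25.4 in KD9, a log2 difference of -0.62 in KD9. Zfp992, with 11 fingers, was at 58.5 in the control, 59.3 and 52.7 in KD4, and 39.6 and 40.1 in KD9. Here the columns of KD4 lay on either side of the control and those of KD9 well below it. The same held for Zfp991, with 11 fingers, at 43.7 in the control, 46.8 and 39.3 in KD4, and 29.9 and 30.4 in KD9. Zfp984, also with 11 fingers, was at 39.3 in the control, 40.4 and 38.6 in KD4, and 30.2 and 29.5 in KD9. The largest difference belonged to Zfp989, with 16 fingers, at 32.6 in the control, 33.8 and 30.7 in KD4, and 16.7 and 20.1 in KD9. Zfp987 was the 1 gene of the cluster with all 4 knockdown columns below the control (30.1% of all genes), at 40.7 in the control, 38.5 and 31.7 in KD4, and 24.7 and 24.7 in KD9.

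Genes of the cluster with few and with many fingers were alike in their lower level in KD9. The 6 genes with fewer than 8 fingers had a median log2 difference of -0.60 in KD9 and a median level of 32 TPM, and the 10 genes with 8 or more had -0.50 and 34.9 TPM. Beside the cluster stand other genes of like level. Over the 5579 genes whose mean TPM lay in the range of the 15 genes without Zfp933 (16.8 to 70.3), the median log2 difference was 0.01 in KD4 and -0.08 in KD9. The 9 genes numbered from Zfp900 to Zfp999 outside the cluster whose mean TPM reached 10 had medians of 0.26 and -0.15. The 161 other KRAB zinc finger genes outside the chromosome 4 interval had 0.26 and 0.06.

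Most genes that lie between the members of the cluster, but bear other names, were lower in KD9 as well. The 48 other genes in the interval had a median log2 difference of -0.09 in KD4 and -0.53 in KD9. In KD9, 35 of them were below the control and 13 above it, with a range of -1.87 to 1.60, where 11363 of all 19950 genes were below. Of the 48, 10 reached a mean TPM of 10. All 10 had both KD9 columns below the control, with a median of -0.62, where 49.8% of all genes had both columns below. Zfp534, a zinc finger gene of the interval, had a TPM of 71.0 in the control, 67.5 and 66.1 in KD4, and 40.9 and 40.7 in KD9. Zfp600 was at 19.8 in the control, 18.8 and 19.4 in KD4, and 11.1 and 10.2 in KD9, and Rex2, a KRAB zinc finger gene expressed in ESCs, was at 23.7, then 27.0 and 23.0, then 16.4 and 16.2. In all of these the KD9 columns stood apart from the other columns. On both sides of the interval the medians were close to 0. The 60 genes in the 5 Mb before it had medians of 0.09 in KD4 and 0.04 in KD9, and the 94 genes in the 5 Mb after it had 0.05 and 0.02. These neighbouring genes were chosen after the values were seen, and they are given as a description.

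**Figure D2:**
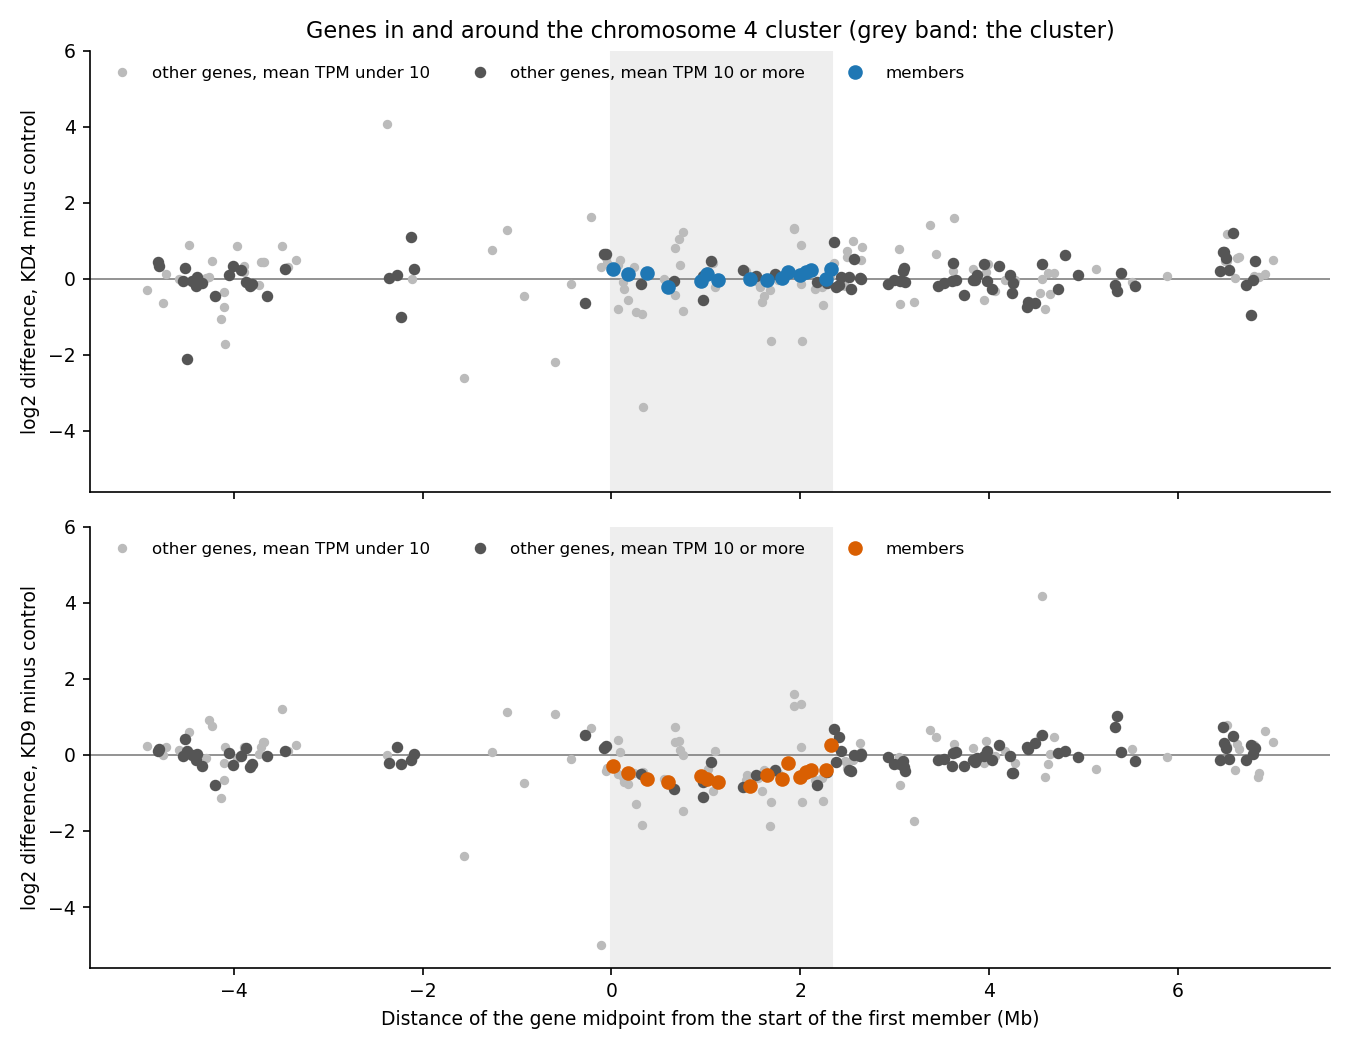
Log2 difference from the control in KD4 (top) and KD9 (bottom) for each gene in and around the chromosome 4 cluster, by the distance of its midpoint from the start of the first member in Mb. Coloured points are the 16 members, dark grey points other genes with a mean TPM of 10 or higher and light grey points other genes. Inside the cluster (grey band) members have a median of -0.54 in KD9, and the median is 0.04 before the band and 0.02 after it.

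Reads of these genes are hard to assign, since the genes are near copies of each other and the authors kept uniquely mapped reads. For each gene the share of its 50-base words that occur in no other annotated gene was counted in the reference transcripts. In the chromosome 4 cluster this share ran from 11% (Zfp987) to 98.9% (Zfp933), with a median of 38.8%, so the levels of single genes there are uncertain. The 5 genes with a share of at least 70% (Zfp979, Zfp982, Zfp985, Zfp990 and Zfp933) had medians of 0.23 in KD4 and -0.39 in KD9, and 4 of the 5 were below the control in KD9. The 11 genes under 70% had medians of 0.01 and -0.62. In 5 of the 16 genes another annotated gene overlapped the gene body, and by the methods the counting ran at its default settings, which do not use strand, so reads of overlapping genes cannot be told apart by strand. The part of shared reads in the result was not tested.

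Set against each other, KD4 lay above KD9 in most of these genes, though not in every cluster. In 44 of the 61 genes both KD4 columns lay above both KD9 columns, where 38.5% of all genes did, and in 4 the order was reversed, where 29.9% of all genes were. For the chromosome 4 cluster it was 15 of 16, with a median KD4 minus KD9 difference of 0.60 on the log2 scale, and for the genes elsewhere it was 29 of 45, with a median of 0.26. The 161 other KRAB zinc finger genes outside the chromosome 4 interval had a like median of 0.27, and the 289 other numbered Zfp genes 0.19. In the chromosome 17 cluster KD4 lay above KD9 in 5 of 10 genes and below it in 3. Only Zfp968 differed more than 2-fold, where 2.47% of all genes were that much higher in KD4 and 7.06% that much higher in KD9. If the columns of a line are taken as separate cultures, as the legends of the study describe them but the labels do not, limma can test the lines against each other. In that fit 23 of the 61 genes were higher in KD4 than in KD9 at an adjusted p under 0.05 and 0 were lower, where 14.9% of all genes were higher and 13.4% lower. The 23 comprised 15 of the 16 genes on chromosome 4 (93.8%), with differences from 0.37 to 0.81 and limma adjusted p from 0.00811 to 0.0494, and 8 of the 45 genes elsewhere (17.8%, near the share of all genes). The exception was again Zfp933, with a difference of -0.01 (SE 0.13) and a limma adjusted p of 0.957. Against the lone control the same fit called 1 gene lower in KD9, Zfp981 (limma adjusted p 0.0446; 3.11% of all genes), 0 higher in KD9 (1.99% of all genes), and 3 genes higher in KD4, Zfp936, Zfp941 and Zfp975 (8.37% of all genes), with 0 lower in KD4 (12.2% of all genes). For both lines together it called 0 of the 61, where 3.91% of all genes were higher and 6.94% lower. This fit was added after the data were seen, and its error covers only the spread between the columns.

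**Figure D3:**
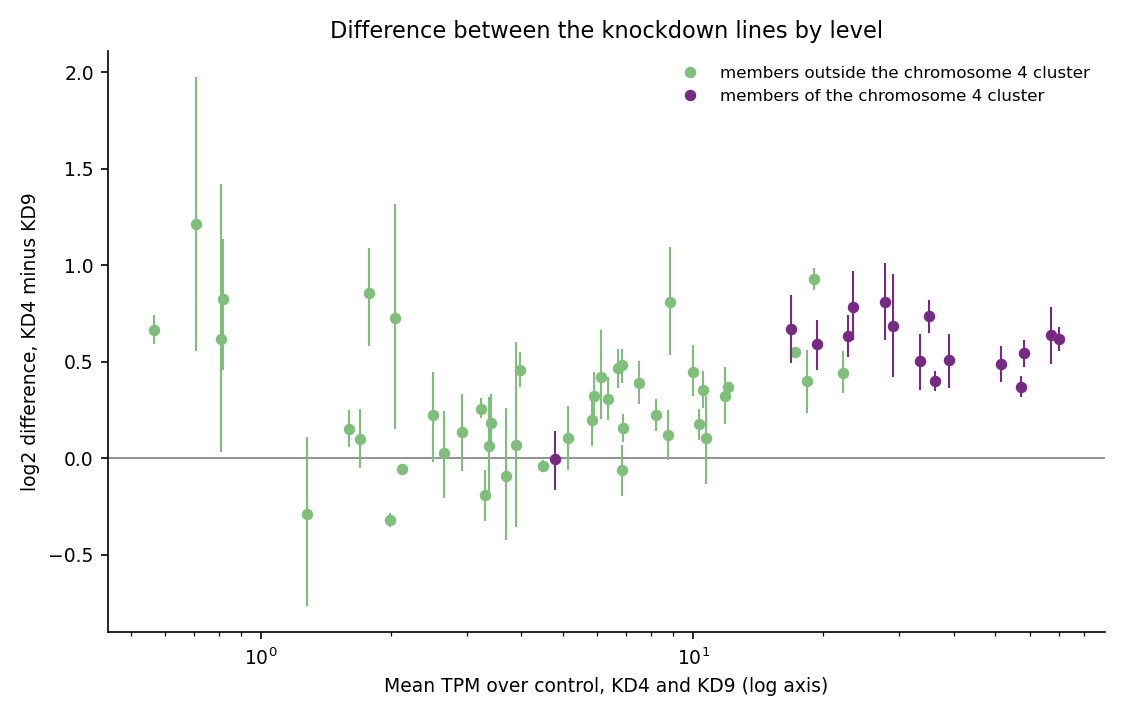
Log2 difference between KD4 and KD9 (vertical axis) against mean TPM (log axis) for the 61 genes above the filter, in purple for the chromosome 4 cluster and green for the others. Points compare the means of the lines and vertical lines span the smallest to the largest difference between their columns. In 15 of the 16 cluster genes the whole span lies above 0.

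The largest differences between the lines outside chromosome 4 came from genes of several loci. Zfp968, a low gene of the chromosome 2 cluster with 11 fingers, had a TPM of 0.673 in the control, 0.857 and 1.25 in KD4, and 0.243 and 0.550 in KD9, a KD4 minus KD9 difference of 1.21. Zfp936 on chromosome 7, also with 11 fingers, was at 16.7 in the control, 26.1 and 27.0 in KD4, and 13.6 and 14.2 in KD9, a difference of 0.93. Zfp951 on chromosome 5, with 10 fingers, was at 1.38 in the control, 2.14 and 3.0 in KD4, and 1.36 and 1.40 in KD9, a difference of 0.86. KD4 was above the control in all of these, while KD9 was below it in Zfp968 and Zfp936 and level with it in Zfp951. Zfp965 on chromosome 2, with 6 fingers, was at 0.755 in the control, 0.862 and 1.36 in KD4, and 0.566 and 0.600 in KD9. Only 4.5% of the 50-base words of Zfp968 and 3.7% of those of Zfp965 were unique, so the levels of both are uncertain. The opposite order was small in size. Zfp983 on chromosome 17 was at 1.93 in the control, 1.75 and 1.83 in KD4, and 2.25 and 2.26 in KD9, a difference of -0.32. Zfp943, also on chromosome 17, was at 2.99 in the control, 2.97 and 3.47 in KD4, and 3.75 and 3.61 in KD9. Zfp947 was at 1.83 in the control, 2.23 and 2.21 in KD4, and 2.29 and 2.33 in KD9, a difference of -0.06. Zfp952 was at 4.11 in the control, 4.66 and 4.58 in KD4, and 4.69 and 4.81 in KD9, a difference of -0.04. In these genes the KD9 columns were above the KD4 columns by less than 1.5-fold.

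The clusters differed in which line departed from the control. In the chromosome 7 cluster (Zfp936, Zfp975, Zfp976 and Zfp977) all 4 genes had both KD4 columns above the control (38.5% of all genes), with a median log2 difference of 0.64, and the median in KD9 was -0.00. Zfp977, with 11 fingers, had a TPM of 7.80 in the control, 10.9 and 13.1 in KD4, and 7.5 and 6.07 in KD9. Zfp975, with 14 fingers, was at 5.38, then 7.98 and 9.20, then 6.18 and 6.17. In the chromosome 2 cluster the 9 genes above the filter had medians of 0.50 in KD4 and 0.34 in KD9, and 8 of the 9 had both KD4 columns above the control, again beside 38.5% of all genes. These 9 genes had a median level of 1.28 TPM. The share of unique 50-base words in the cluster ran from 0% to 76.7%, with a median of 12.7%, so their levels are uncertain. In the chromosome 17 cluster the medians of the 10 genes were 0.09 and -0.04. Zfp948, the highest of these with 15 fingers and 99.9% of its words unique, was at 25.5 in the control, 24.0 and 23.2 in KD4, and 18.3 and 16.3 in KD9, a log2 difference of -0.56 in KD9, so a gene on another chromosome was as low in KD9 as the median gene of the chromosome 4 cluster. The 18 unclustered genes above the filter had medians of 0.27 and 0.11. Over all 45 genes outside chromosome 4 the medians were 0.29 in KD4 and 0.10 in KD9, with 33 genes (73.3%) above the control in both KD4 columns and 21 (46.7%) in both KD9 columns. Of all genes 38.5% and 34.7% were, and of the other numbered Zfp genes 65.7% and 46.4%.

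**Figure D4:**
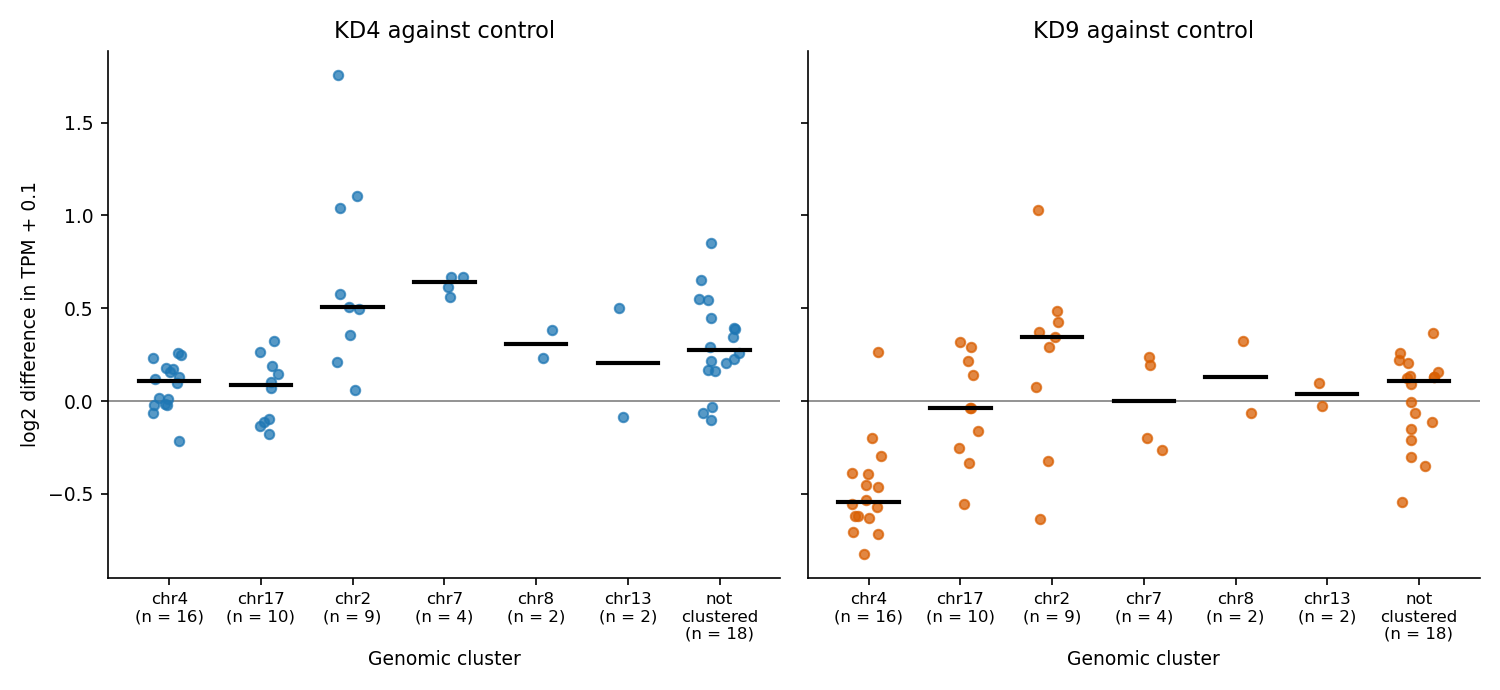
Log2 difference from the control in KD4 (left) and KD9 (right) for the 61 genes above the filter, grouped by genomic cluster, with the median of each group as a bar. The chromosome 4 group has medians of 0.11 and -0.54, and the chromosome 7 group 0.64 and -0.00.

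Zfp972, the gene that was more than 2-fold higher in both lines, lies in the chromosome 2 cluster (ENSMUSG00000074529.10, chr2:177903340-177925613, minus strand). Its level was 0.903 TPM in the control, 3.94 and 2.64 in KD4, and 1.52 and 2.37 in KD9, so every knockdown column was above the control. The log2 difference was 1.76 in KD4 and 1.03 in KD9. The call in KD9 rested on its second column, since 0 of the 61 genes were more than 2-fold higher in KD9 with the first column alone. It was also lost with a pseudocount of 0.5 or 1. Neither a finger nor a KRAB box was found in its longest reference protein, and 44.3% of its 50-base words were unique. The other genes past 2-fold in KD4 were lower still. Zfp969, with 11 fingers, was at 0.499 in the control, 1.08 and 1.30 in KD4, and 0.421 and 1.06 in KD9, and Zfp966, with 11 fingers, was at 0.359, then 0.838 and 0.848, then 0.523 and 0.467. No 50-base word of Zfp969 was unique to it (0%), so its level is uncertain.

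By line means the genes with a known role in ESCs stayed within 1.5-fold of the control. Zfp982 came near that bound in KD9, at 0.673-fold, close to the median of its chromosome 4 cluster (0.686-fold). Zfp932 encodes a KRAB zinc finger protein that, with its close relative Gm15446, binds endogenous retroviruses of the ERVK class and represses the neighbouring gene Bglap3. It had a TPM of 11.8 in the control, 13.8 and 13.7 in KD4, and 10.6 and 10.6 in KD9. Gm15446 was at 4.33 in the control, 5.54 and 5.46 in KD4, and 4.33 and 4.08 in KD9, and Bglap3 at 2.30, then 2.67 and 1.54, then 1.56 and 1.91. Zfp932 was above the control in KD4 and below it in KD9, with log2 differences of 0.22 and -0.15. Gm15446 was above the control in KD4, and Bglap3 had its KD4 columns on either side of the control and its KD9 columns below it. Zfp982, on chromosome 4 with 7 fingers and 88.1% of its words unique, is described in mouse ESCs as a factor that promotes the expression of stem cell genes, among them Nanog, Zfp42 and Dppa3. It was at 18.4 in the control, 18.3 and 21.1 in KD4, and 11.7 and 13.0 in KD9, a log2 difference of -0.57 in KD9. The log2 differences of Nanog were 0.65 in KD4 and 0.60 in KD9, those of Zfp42 1.24 and 0.81, and those of Dppa3, which marks naive cells and the germline, 1.41 and 0.99. These genes were above the control in both lines while Zfp982 was below it in KD9, and none of them passed limma's adjusted test.

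Of 34 genes listed as co-repressors and heterochromatin partners of KRAB zinc finger proteins, 32 were in the table. Among them are Zfp809, Zfp57 and Rex2, zinc finger genes themselves, and Rex2 lies in the chromosome 4 interval. In limma's adjusted test 0 of the 32 passed in either direction, as 0 of all 19950 genes did. The median log2 difference of the 32 genes was 0.17 in KD4 and -0.19 in KD9. Above the control were 25 of the 32 in KD4 and 6 in KD9, where 9529 and 8560 of all 19950 genes were. Trim28, the co-repressor that the KRAB box binds, had a TPM of 600.1 in the control, 860.0 and 829 in KD4, and 608 and 599 in KD9. Setdb1, the histone methyltransferase that Trim28 recruits, was at 28.8 in the control, 50.4 and 49.2 in KD4, and 38.5 and 35.7 in KD9. KD4 was high for both, and KD9 was level with the control for Trim28. More than 2-fold higher in KD4 were Uhrf1, a partner of the maintenance DNA methyltransferase, and Zfp57, a KRAB zinc finger gene that protects imprinted loci, with log2 differences of 1.01 and 1.14.

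Levels of genes that mark the cell types of the cultures differed between the lines. Summed over 12 fibroblast genes, which mark the feeder layer, the level was 2613 TPM in the control, 444 and 455 in KD4, and 1943 and 1944 in KD9, and all 12 genes were more than 2-fold lower in KD4 (median log2 difference -2.56, against -0.44 in KD9). In KD9 the list went both ways, with 3 of the 12 above the control, of which Dcn and Lum, proteoglycans of the matrix, were more than 2-fold higher, with log2 differences of 1.27 and 2.57. Summed over 10 ESC genes it was 4989 TPM in the control, 6809 and 6738 in KD4, and 5150 and 5155 in KD9, with medians of 0.61 and 0.05. Dppa5a alone held 2028 TPM of the control sum. The ESC list went both ways too, with 9 of the 10 above the control in KD4 and 5 in KD9. Lin28a was lower in both lines, with log2 differences of -0.80 and -1.26. No gene of either list was at 0 in every column. In bulk RNA fewer cells of a type and less RNA per cell cannot be told apart. The part of the feeder content in the values of either line was not tested. Summed over the 5 Usp17l genes, the targets of the shRNAs, the level was 4.66 TPM in the control, 0.651 and 0.591 in KD4, and 1.51 and 0.683 in KD9. Summed over 10 genes of 2-cell-like cells it was 19.1, then 2.24 and 2.08, then 4.46 and 3.51.

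At the lower end of the family 3 genes did not pass the filter. Zfp964, on chromosome 8 with 9 fingers, had a TPM of 0.385 in the control, 0.527 and 0.217 in KD4, and 0.498 and 0.294 in KD9. Zfp957 was listed at 0 in the control, 0 and 0.0788 in KD4, and 0.179 and 0 in KD9. Zfp967 was listed at 0 in the control and reached at most 0.0649 in any column. Just above the filter were Zfp966 and Zfp968, with mean TPM of 0.566 and 0.708, whose columns are given above. In Zfp964 the columns within each line differed more than the lines did, whereas over the 61 genes the median distance between the columns of a line was 0.14 in KD4 and 0.13 in KD9 on the log2 scale, against a median distance of 0.39 between the lines.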

How the data were processed

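RNA was isolated from E3 ESCs and mRNA libraries were sequenced on an Illumina HiSeq. By the methods and the submitters' processing notes, which give no versions, the authors used Trim Galore for trimming, HISAT2 for alignment to mm10 and featureCounts for counting reads with a unique position, and deposited TPM. Their gene annotation: not given in the sources used here. TPM keeps no depth, so no count model and no counting interval were used. Columns were taken as the labels map them: 1 for the control and 2 for each knockdown line, averaged to 1 replicate. 1 further control column, which matches no labelled sample, was not used. Some of its values were seen, and they entered no result.

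Values were set as log2(TPM + 0.1) for the 19950 genes whose mean TPM over the 3 samples reached 0.5. Changes in 1 line were counted past 2-fold, without a test. The lines together were tested against the control in limma (version 3.58.1, R 4.3.3; lmFit, eBayes with a trend, two-sided, Benjamini-Hochberg adjusted p under 0.05 over all genes), with 1 residual and 3.01 prior degrees of freedom, the lone control being assumed to vary like the lines. The scripts were tested on simulated data. The study's legends describe the columns of a line as biological replicates while the labels name 1 sample per line, and the main p-values measure the spread between the lines.

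Positions, fingers (C, 2 to 4 residues, C, 12 residues, H, 3 to 5 residues, H), KRAB boxes and 50-base words came from GENCODE M21 on mm10, and promoters (250 bases before to 50 after the start) from RefSeq on GRCm38.p6. All 64 symbols matched the annotation, and 54 had a promoter. Genes given with every column were the 8 with the highest mean TPM, those past 2-fold in both lines, the 4 in each direction with the largest difference between the lines among genes whose columns did not overlap, 2 with known roles and those next to the filter; others were named after their values were seen. The members and gene lists were chosen with earlier results of these data known. Alternatives were other pseudocounts, filters, folds, scaling, single columns and limma settings. Tables were made with Python 3.11.15.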

Additional observations from a re-analysis of the deposited data

Results flagged for a closer look

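Several values moved in opposite directions in the lines, with both KD4 columns above the control and both KD9 columns below it, or the reverse. The lines share the control, and none of these differences was tested between labelled replicates. The median KD4 minus KD9 difference on the log2 scale was 0.60 for the chromosome 4 cluster and 0.39 for all 61 genes above the filter, where the medians of both KD4 columns were above 0 and those of both KD9 columns below it. Among the genes that the rule on named genes picked, 4 of the cluster showed the pattern, Zfp979 with a difference of 0.62, Zfp990 with 0.54, Zfp978 with 0.37 and Zfp981 with 0.74. On other chromosomes it was shown by Zfp968 with 1.21, Zfp936 with 0.93, Zfp965 with 0.83 and Zfp932 with 0.37, and also by Zfp977, named after its values were seen, with 0.81. Zfp983 had the reverse order, with a difference of -0.32. The rule had picked Zfp968, Zfp936, Zfp965 and Zfp983 for the size of their difference between the lines, so their place here is no separate result. In all, 16 of the 61 genes had KD4 above and KD9 below the control, 7 of them in the cluster, where 11.8% of all genes did. The groups were too small for a test of single samples that stand apart.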

How the results depend on the processing

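The lower level of the chromosome 4 cluster in KD9 kept its direction throughout. In every setting tried 15 of its genes were below the control, of 16 measured or of 15 with mean TPM from 5 upwards, and its median was -0.47 after rescaling by median ratios and -0.51 with the second columns alone (0.071 in KD4). Counts past 2-fold rested on genes of low level. With a pseudocount of 1 or of 0.5, KD4 had 1 higher gene, KD9 0, and 0 were shared, while 0 differed 2-fold between KD4 and KD9. With mean TPM from 1 upwards, 1 gene was higher in KD4 and 0 differed between the lines, and at 5 all these counts were 0. At 1.5-fold, 8 of the 61 genes were higher in KD4 and 7 lower in KD9, near the shares of all genes (11% and 11.6%). At that fold 17 were higher in KD4 than KD9. At 3-fold KD4 had 1, KD9 had 0, 0 were shared and 0 differed between the lines. The share of all genes was not counted for the 17 or at 3-fold. Leaving out KD4 or KD9 leaves 1 line, whose own counts of higher genes, 1 in KD9 and 3 in KD4, take the place of the count in both lines. With the first columns alone 0 genes were higher and 1 lower in KD9, and 0 were higher in both lines. The median of all members in KD4 was 0.18 with a pseudocount of 1, 0.15 for genes at 5 or more and 0.25 with the first columns. In KD9 it was -0.039 without a filter, -0.28 for genes at 5 or more and 0.0065 after rescaling, so its sign is not settled. Outside chromosome 4 it was 0.22 in KD4 and -0.066 in KD9 for genes at 5 or more, and in KD9 0.17 after rescaling and 0.018 with the first columns. For both lines together against the control 0 members passed limma in every planned setting, including each column as a library. In these settings 0 of all genes tested passed either, so they cannot set the members apart from other genes. In the fit with 3 groups of columns, added after the data were seen, 781 genes of the table were higher in both lines together and 1384 lower, but 0 members. Its calls for single lines are given with the results. No paired analysis was possible because the labels give 1 sample per line and no shared culture. With 1 control, unknown depth and near-identical genes, the difference of a single member from the control in 1 line has no replicate check.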
